A study of Mus musculus with 8 samples.

Results

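Naive CD8 T cells were compared here with naive CD4 T cells from mice labelled as conditional knockouts of Trappc1 in T cells, using 4 of the 8 messenger RNA libraries of the series: CD8 KO replicates 1 and 2 against CD4 KO replicates 1 and 2, as the labels give cell type and genotype. All cells came from the mLNs and spleens of mice aged 4 weeks and were sorted as CD4 or CD8 cells by a naive gate that includes low CD44. The KO mice are CD4-cre Trappc1 cKO mice. Both KO groups carry the same genotype label, and the labelled difference between them is the lineage. The remaining 4 libraries are WT, 2 of CD4 and 2 of CD8 cells, and serve here to show the same lineage difference in WT cells. The Cd4 promoter drives this Cre, and it acts in thymocytes at the stage that gives rise to both lineages. No source used here gives the strain, the sex, any pooling of mice or the deleted exons. Whether replicates are separate mice is not labelled, and the p-values then reflect only the variation among these libraries, possibly technical.

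CD4 and CD8 T cells arise from a shared precursor in the thymus. The factor ThPOK, encoded by Zbtb7b, directs cells to the CD4 fate, and the factor Runx3 directs them to the CD8 fate and silences Cd4. Trappc1 encodes one of the small core proteins of TRAPP, a complex that helps capture transport vesicles at the endoplasmic reticulum and Golgi. Naive CD8 cells are known to carry more transcripts of genes of cytotoxic cells than naive CD4 cells.

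Several CD8 genes that stood higher in CD8 KO cells are shown first by their promoters. RUNX factors bind a known core sequence, TGTGGT. The 250 bases before the RefSeq start (GRCm38.p6) were searched on both strands for this core, the only motif searched. Capitals mark the match, read as TGTGGT or as its reverse complement. The 4 called CD8 genes with a match are given 5′ to 3′ on the gene's own strand. Nkg7 encodes a protein of cytotoxic granules, Cst7 a protease inhibitor of such granules, Cxcr3 a chemokine receptor and Ly6c2 a surface protein.
Nkg7 (chr7:43436888-43437137, plus strand): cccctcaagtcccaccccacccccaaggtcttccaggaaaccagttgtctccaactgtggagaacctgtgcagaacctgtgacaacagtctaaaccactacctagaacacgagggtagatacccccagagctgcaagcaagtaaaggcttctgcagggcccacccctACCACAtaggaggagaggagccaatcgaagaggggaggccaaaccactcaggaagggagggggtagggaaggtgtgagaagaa
Cst7 (chr2:150570165-150570414, plus strand): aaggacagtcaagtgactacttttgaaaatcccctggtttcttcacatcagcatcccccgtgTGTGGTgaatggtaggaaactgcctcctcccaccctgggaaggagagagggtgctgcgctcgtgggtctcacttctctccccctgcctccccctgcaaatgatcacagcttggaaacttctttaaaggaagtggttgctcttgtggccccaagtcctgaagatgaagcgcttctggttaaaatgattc
Cxcr3 (chrX:101734148-101734397, minus strand): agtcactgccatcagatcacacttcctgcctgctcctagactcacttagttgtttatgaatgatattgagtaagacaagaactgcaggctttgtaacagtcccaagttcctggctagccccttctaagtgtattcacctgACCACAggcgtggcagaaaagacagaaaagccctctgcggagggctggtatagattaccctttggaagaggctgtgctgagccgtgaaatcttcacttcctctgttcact
Ly6c2 (chr15:75111938-75112187, minus strand): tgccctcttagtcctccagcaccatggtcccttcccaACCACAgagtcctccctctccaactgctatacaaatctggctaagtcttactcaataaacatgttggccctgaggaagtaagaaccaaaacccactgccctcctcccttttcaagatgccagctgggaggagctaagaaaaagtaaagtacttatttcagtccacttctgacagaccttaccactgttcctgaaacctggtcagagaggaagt
Of the 12 CD8 lineage genes called higher, 7 have a window in the RefSeq table, and the core was present in 4 of these 7 (57.1%). Of all tested genes with a window it was present in 946 of 8299 (11.4%), of those called higher in 14 of 72 (19.4%), and of those called lower in 8 of 71 (11.3%). The window of Cd8a itself (chr6:71373177-71373426) holds no match. A match describes letters and is no measurement of binding. The list of CD8 lineage genes was chosen with earlier results of these data known. Whether a RUNX factor acts on these genes was not tested.

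Aligned sequence, estimated from coverage and FPKM, ranged from 3.03 to 4.01 gigabases over the 8 libraries, and between 5952 and 10634 symbols per library were listed at 0. Across genes, the 2 CD4 KO libraries gave a Pearson's r of 0.946 and the 2 CD8 KO libraries one of 0.922. CD8 WT replicate 2 was unlike the rest and was left out of the fit. It held 95558 TPM summed over 19 erythroid markers, against 2341 in CD8 WT replicate 1 and at most 456 in any other library. CD8 WT replicate 1 is the lone CD8 library behind the WT lineage differences given here and, alone in its group, adds nothing to the spread. TPM is a length-corrected share of all transcripts, scaled to one total in every library. With TPM plus 1 on the log2 scale and 7 libraries in the fit, 210 of 11737 tested genes (1.79%) passed at an adjusted p under 0.05 (limma). Of these, 101 (0.861%) were higher and 109 (0.929%) lower in CD8 KO cells. The smallest called difference was 0.81 on the log2 scale, and the median of all tested genes was -0.01. Separate levels in the 4 KO libraries were common at this replication, since for 49.2% of all tested genes the groups did not overlap. With all 8 libraries in the fit 25 genes passed, and all 25 were among the 210. Leaving out 1 KO library in turn left between 0 and 3 genes. Among the named genes, Cd8a then passed in 3 of the 4 such fits, Cd4 and Cd40lg in the 2 without a CD8 KO library, and no other named gene passed in any of them. At an unadjusted p under 0.05 there were 2037 of the 11737 genes (17.4%), the share to set beside such counts in a list.

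The genes that define the lineages followed the labels in every KO library. Cd8a, which encodes one chain of the CD8 coreceptor, stood at 484 and 418 TPM in CD8 KO and at 1.78 and 1.28 in CD4 KO, a difference of 7.49 ± 0.32 on the log2 scale (SE, adjusted p = 6.65e-05). Its partner chain Cd8b1 stood at 1844 and 1828 TPM against 44.2 and 19.7 (5.91 ± 0.41, adjusted p = 0.000714). In CD4 cells of either genotype Cd8a stood at no more than 4.10 TPM and Cd8b1 at no more than 44.2 TPM, and both were abundant in CD8 cells. Cd4 stood at 565 and 733 TPM in CD4 KO, and in CD8 KO at 3.65 and listed at 0 (-8.22 ± 0.60, adjusted p = 0.00075). Cd40lg, the ligand by which CD4 cells help B cells, stood at 126 and 141 TPM in CD4 KO against 0 and 3.12 in CD8 KO (-6.05 ± 0.59, adjusted p = 0.00219). The size of these last differences depends on the pseudocount, since 1 CD8 KO library is listed at 0 for each gene. All 4 genes passed in the WT comparison as well, where the differences were 6.94, 6.68, -6.58 and -7.17 in the same order.

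Cd7, a surface protein of T and NK cells, was also higher in CD8 KO. It stood at 1521 and 1329 TPM in CD8 KO and at 181 and 200 in CD4 KO (2.89 ± 0.21, adjusted p = 0.000714). In WT cells the same gene stood at 354 TPM in CD8 replicate 1, 171 in CD8 replicate 2, and 180 and 128 in the CD4 libraries. The CD8 KO libraries were thus the highest of all 8 by a wide gap, while the CD4 KO and CD4 WT libraries lay close together. The WT difference was 1.21 ± 0.25 (adjusted p = 0.0993), and the difference between the KO and WT lineage differences did not pass (1.68 ± 0.33, adjusted p = 0.254).

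**Figure D1:**
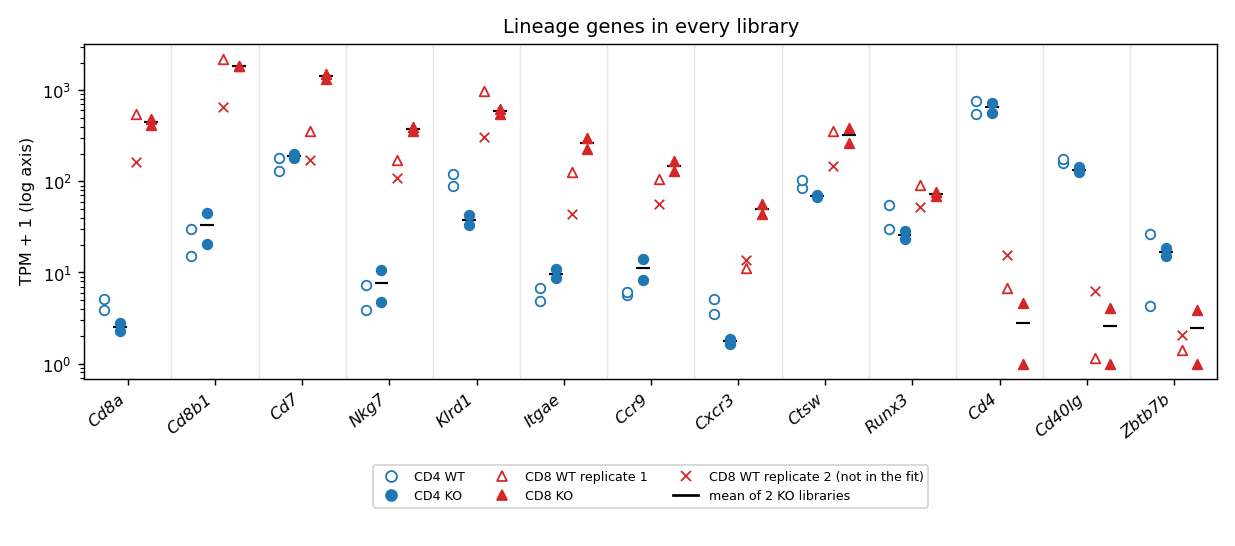
Transcript level of 13 lineage genes in every library, as TPM + 1 on a log axis, with CD4 cells as circles, CD8 cells as triangles, WT open and KO filled, black bars for the means of the 2 KO libraries, and the CD8 WT library left out of the fit as a cross. Cd8a, Cd8b1, Nkg7, Klrd1, Itgae and Ccr9 separate CD8 from CD4 cells in both genotypes, and Cd7 stands at 1521 and 1329 TPM in CD8 KO against 128 to 354 TPM in the other libraries.

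The factors behind the lineage choice did not pass. Zbtb7b stood at 14 and 17.8 TPM in CD4 KO and at 0 and 2.90 in CD8 KO (-3.09 ± 0.94, adjusted p = 0.147). Runx3 stood at 76.0 and 68.0 TPM in CD8 KO and at 22.3 and 27.3 in CD4 KO (1.51 ± 0.34, adjusted p = 0.0681). Neither gene's groups overlap. Of the 31 tested genes on a list of lineage and naive T cell transcription factors, 0 passed in either direction by limma and 5 had an unadjusted p under 0.05, and the median was -0.00. Tcf7 and Lef1, which maintain naive T cells, stood at 1628 to 2110 TPM and at 925 to 1257 TPM over the 4 KO libraries.

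Trappc1 (chromosome 11, 69323986 to 69325793, plus strand, mm10 positions from the files) stood at 30.5 and 32.8 TPM in CD4 KO and at 56.9 and 45.6 in CD8 KO. The CD8 KO libraries were the higher ones, without passing (0.67 ± 0.28, adjusted p = 0.266). For WT, CD4 libraries gave 78.7 and 55.0 TPM and CD8 libraries 81.2 and 40.3. One value per gene does not check the deleted part. None of the 14 TRAPP subunits passed between CD8 and CD4 KO cells by limma, 3 had an unadjusted p under 0.05, and their median difference was 0.01. Of the 39 tested genes of vesicle coats and Golgi tethering 1 passed, Rab6a, a Golgi GTPase, which fell from 135 and 140 TPM in CD4 KO to 41.5 and 51.5 in CD8 KO (-1.55 ± 0.25, adjusted p = 0.0223). Its WT difference was -0.14, with 75.7 and 107 TPM in CD4 WT and 81.5 in CD8 WT replicate 1.

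Of 22 CD8 lineage genes, all tested, 12 were higher and 2 lower in CD8 KO cells, and 8 did not pass. The list's median was 2.35 in KO cells and 1.72 in WT cells. Klrd1, which encodes the receptor chain CD94, stood at 629 and 551 TPM in CD8 KO against 32.1 and 41.7 in CD4 KO (3.97 ± 0.23, adjusted p = 0.000402). Nkg7 stood at 396 and 357 TPM against 9.64 and 3.72 (5.73 ± 0.46, adjusted p = 0.00114). These are the genes of cytotoxic cells that were most separated. Cst7 stood at 98.7 and 81.1 TPM against 7.99 and 8.51, and Ctsw, a protease of cytotoxic cells, at 386 and 261 against 66.8 and 70.8. In all 4 genes both CD8 KO libraries lay far above both CD4 KO libraries. Other effector genes did not pass: Prf1, the pore-forming protein, stood at 37.9 and 22 TPM against 9.42 and 9.86, and Ccl5, a chemokine, at 245 and 279 against 58.6 and 44.4 (adjusted p = 0.0501). Gzmb, a granule protease, stood at 2.96 and 4.92 TPM in CD8 KO and at 11.1 and 4.86 in CD4 KO, and its groups overlap. Over the cytotoxic and effector list, 4 of 23 tested genes were higher, 0 were lower and the median was 0.98.

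The 2 members of the CD8 list that fell were St8sia6 and Tspan32. Tspan32, a tetraspanin, stood at 130 and 98.8 TPM in CD8 KO and at 621 and 624 in CD4 KO (-2.45 ± 0.20, adjusted p = 0.00114). St8sia6, a sialyltransferase, stood at 7.56 and 2.52 TPM against 32.2 and 45.5 (-2.84 ± 0.49, adjusted p = 0.0283). In WT cells the differences were -1.57 and -2.33. Of the CD4 lineage list, 3 of 19 tested members were lower in CD8 KO, 0 were higher and the median was -0.42. The third beside Cd4 and Cd40lg was Folr4, a folate receptor family gene also known as Izumo1r, at 13.7 and 20.1 TPM against 51.3 and 51.7.

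Receptors that guide T cells to tissues differed in both directions, with 4 of 25 tested genes higher, 4 lower and a median of -0.09. Itgae, the integrin alpha chain CD103 that pairs with Itgb7, stood at 302 and 224 TPM in CD8 KO and at 7.60 and 9.88 in CD4 KO (4.75 ± 0.33, adjusted p = 0.000714). Ccr9, a receptor for a chemokine of the small intestine, stood at 165 and 127 TPM against 13.2 and 7.35 (3.74 ± 0.36, adjusted p = 0.00219). Both were higher in CD8 cells of WT mice too, by 4.45 and 4.17. Cxcr3, a receptor for interferon-induced chemokines, stood at 43.2 and 55.1 TPM in CD8 KO, at 0.872 and 0.653 in CD4 KO, at 10.3 and 12.6 in the CD8 WT libraries and at 2.53 and 4.09 in CD4 WT. Its KO difference was 4.82 ± 0.48 (adjusted p = 0.00227) and its WT difference 1.41 ± 0.59, and the test between them did not pass (adjusted p = 0.365). Selplg, an adhesion glycoprotein of leukocytes, was the remaining riser, at 1308 and 1314 TPM against 648 and 653.

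Of the homing genes that fell, Cxcr5, which guides cells to B cell follicles, stood at 20.1 and 34.5 TPM in CD8 KO against 108 and 96.4 in CD4 KO (adjusted p = 0.0208), a log2 difference of -1.91 beside -2.54 in WT cells. Ccr6, a chemokine receptor, fell from 6.25 and 7.65 TPM to 0 and 0.340. B cell markers, given below, were also lower in CD8 KO. The part of B cell transcripts in the falls of Cxcr5 and Ccr6 was not tested. Itgb7, the beta chain that pairs with Itgae and is part of the gut-homing integrin, fell from 366 and 438 TPM in CD4 KO to 98.0 and 81.4 in CD8 KO (-2.15 ± 0.19, adjusted p = 0.00149). Unlike its partner Itgae, Itgb7 did not differ that way in WT cells, where CD8 replicate 1 stood at 794 TPM, above CD4 at 482 and 456. The difference between KO and WT lineage differences passed for Itgb7 (-2.91 ± 0.29, adjusted p = 0.0383). The excluded library CD8 WT replicate 2 stood at 291 TPM, below both CD4 WT libraries, and with it in the fit that test did not pass.

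Of 29 tested genes of T cell receptor signalling, 4 were called higher, 1 was called lower and 24 did not pass, with a median of 0.48 (0.30 without CD4 KO replicate 1). None of the 29 passed with all 8 libraries or without any 1 KO library by limma. Thy1, a surface protein of T cells, stood at 190 and 187 TPM in CD8 KO against 43.7 and 43.0 in CD4 KO (2.10 ± 0.21, adjusted p = 0.00251). Themis, which adjusts receptor signalling in thymocytes, stood at 92.2 and 63.6 TPM against 24.7 and 24. Lck, the kinase that CD4 and CD8 bind, stood at 1610 and 1484 TPM against 731 and 811. Rasgrp1, which links the receptor to Ras, was the one that fell, from 216 and 296 TPM to 120 and 120. The receptor chain Cd3e did not separate the groups, at 763 and 621 TPM in CD8 KO and 721 and 706 in CD4 KO.

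Among costimulatory and inhibitory receptors, 1 of 28 tested genes was higher and 3 were lower. Cd226, an activating adhesion receptor, stood at 81.4 and 81.1 TPM in CD8 KO against 8.39 and 19.1 in CD4 KO (2.58 ± 0.38, adjusted p = 0.0160). Ctla4, an inhibitory receptor, fell from 72.6 and 73.6 TPM to 25.6 and 15.8 (-1.81 ± 0.30, adjusted p = 0.0242), and Cd200 fell from 57.0 and 77 to 20.6 and 11.9. Ctla4 is also a marker of regulatory T cells. Foxp3, the factor that defines those cells, stood at 6.29 and 7.43 TPM in CD4 KO and at 0 and 0.145 in CD8 KO without passing (adjusted p = 0.0585). Of 16 tested regulatory T cell markers 2 were lower, 0 higher, and the median was -1.03 in KO cells (-1.60 without CD4 KO replicate 1) and -1.56 in WT cells. In bulk RNA, fewer cells of a type and less RNA per cell cannot be told apart.

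Genes of the surface glycan list gave 2 rises and 1 fall among 22 tested. Dpp4, a surface peptidase also known as CD26, stood at 218 and 159 TPM in CD8 KO against 41.5 and 69.0 in CD4 KO (1.78 ± 0.28, adjusted p = 0.0209), with almost the same difference in WT cells (1.77). Ly6c2 stood at 200 and 155 TPM against 26.6 and 37.5 (2.44 ± 0.39, adjusted p = 0.0209). Its near copy Ly6c1 went the other way without passing, at 7.47 and 20.0 TPM against 41.0 and 28.8, and how reads were divided between these 2 genes is uncertain. H2-Q7, a class I gene with close copies that overlaps H2-Q9 in the tables, stood at 375 and 404 TPM against 102 and 86.4 and is uncertain for the same reason.

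**Figure D2:**
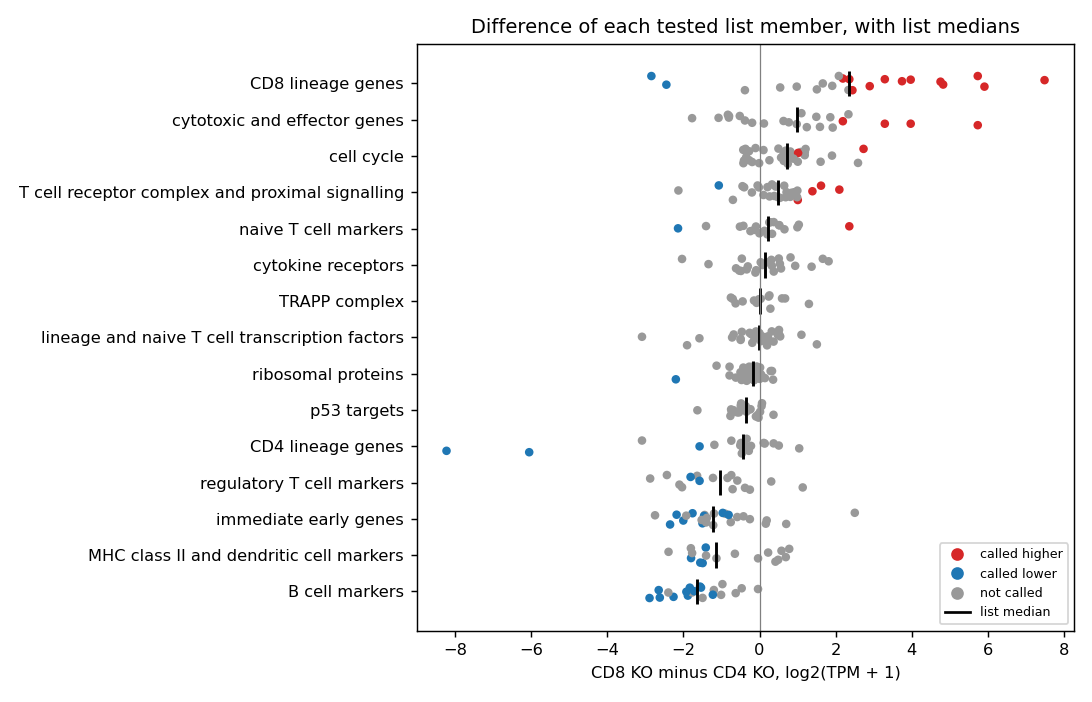
Difference between CD8 KO and CD4 KO on the log2(TPM + 1) scale for every tested member of 15 gene lists, 1 point per gene, red for called higher, blue for called lower, grey for not called and a black bar for the list median. CD8 lineage genes have a median of 2.35, immediate early genes of -1.22 and B cell markers of -1.64.

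Immediate early genes are switched on within minutes of stimulation. Of 25 genes on the list, all tested, 8 were called lower in CD8 KO, 0 were called higher and 17 did not pass, with 21 below 0 and a median of -1.22. None of the 25 passed by limma with all 8 libraries, with no filter on low values, without the intensity trend or without any 1 KO library, where the median stayed between -1.35 and -1.22. Jun, a subunit of the AP-1 factor, stood at 315 and 269 TPM in CD4 KO and at 96.0 and 109 in CD8 KO (-1.50 ± 0.22, adjusted p = 0.0161). Nr4a1, a nuclear receptor induced by T cell receptor signals, stood at 127 and 95.0 TPM against 18.4 and 23.4 (-2.35 ± 0.32, adjusted p = 0.0111). Dusp1, a phosphatase that limits MAP kinases, stood at 419 and 410 TPM against 117 and 127 (-1.76 ± 0.21, adjusted p = 0.00563). In each of these 3 genes the CD4 KO libraries were the highest of the 7 libraries in the fit.

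In WT cells 0 of the 25 genes were called by limma, 6 had an unadjusted p under 0.05 (7.46% of all tested genes), and the median was 0.14. Jun was at 28.4 and 30.2 TPM in the CD4 WT libraries and 31.1 in CD8 WT replicate 1, so both CD8 KO libraries lay above these 3 as well. Nr4a1 stood at 12.8, 12.7 and 10.5 TPM in the same 3 libraries. Ier2 behaved otherwise: it stood at 488 and 525 TPM in CD4 KO, 88.1 and 140 in CD8 KO (-2.18 ± 0.29, adjusted p = 0.00965), 328 and 202 in CD4 WT and 471 in CD8 WT replicate 1, so that CD8 KO cells were the lowest. The KO and WT lineage differences were tested against each other for all 25 genes, and 0 passed by limma, 11 with an unadjusted p under 0.05 (6.95% of all tested genes), Ier2 and Dusp2 at an adjusted p of 0.110 each. The summed list came to 9933 and 9494 TPM in CD4 KO, 4925 and 5313 in CD8 KO, 4768 and 4499 in CD4 WT and 4397 in CD8 WT replicate 1. The excluded CD8 WT library came to 14456 TPM, above all others.

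**Figure D3:**
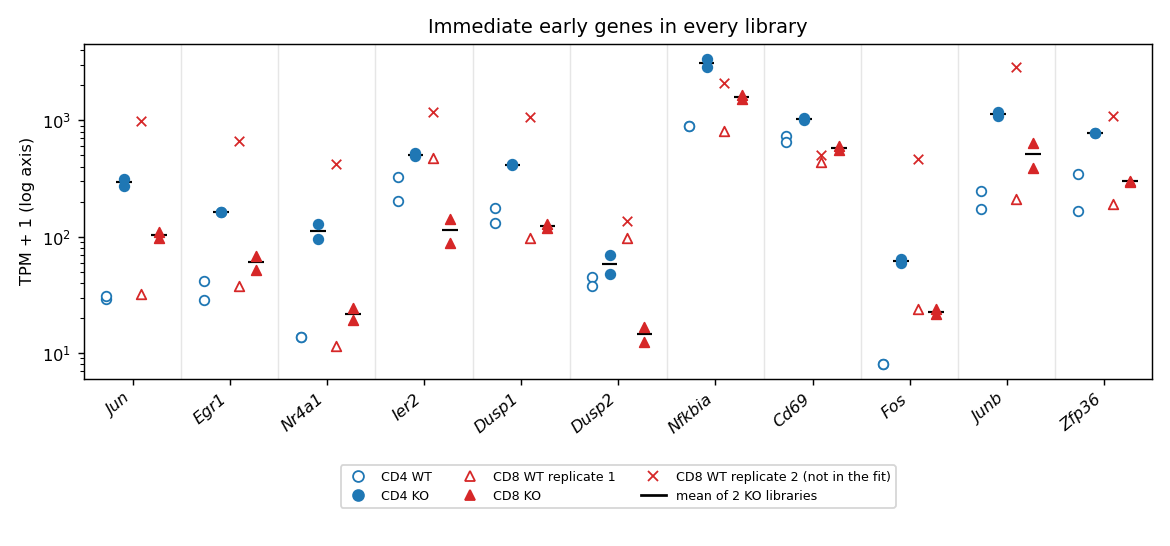
Transcript level of 11 immediate early genes in every library, as TPM + 1 on a log axis, with the same symbols for cell type and genotype and a cross for the CD8 WT library left out of the fit. Jun, Egr1 and Nr4a1 are highest in CD4 KO among the 7 fitted libraries, and the excluded library lies above those for most genes shown.

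Among stress genes, Atf4, a factor of the integrated stress response, fell from 798 and 686 TPM in CD4 KO to 325 and 347 in CD8 KO (-1.14 ± 0.21, adjusted p = 0.0412), and Ppp1r15a, a phosphatase subunit that ends that response, fell from 334 and 292 to 136 and 166. They were the 2 called genes among 29 of the list of ER stress and the unfolded protein response, whose median was -0.11. Neither passed by limma with all 8 libraries, with no filter on low values, without the intensity trend or with a pseudocount of 0.1. Atf4 levels were lower in the fitted WT libraries: 191 and 278 TPM (CD4) and 185 (CD8 replicate 1). Those of Ppp1r15a were 118, 105 and 100 TPM in the same order. For both genes CD4 KO was thus the highest fitted group, with CD8 KO also above WT. The excluded CD8 WT replicate 2 reached 657 and 1315 TPM. Tob1, which restrains T cell proliferation, stood at 180 and 135 TPM in CD4 KO, at 32.9 and 36.3 in CD8 KO and at 26.8 to 28.2 in all 4 WT libraries (KO difference -2.14 ± 0.26, adjusted p = 0.00691). CD4 KO cells were therefore the group that stood apart for Tob1, though the test between KO and WT lineage differences did not pass (adjusted p = 0.252). Of 23 tested p53 targets 0 passed by limma and 6 had an unadjusted p under 0.05. In 11 of these 23 both CD8 KO libraries lay below both CD4 KO libraries, in 0 the reverse, and the median was -0.36, beside 25.5% of all tested genes with that order. Ccng1, a cyclin induced by p53, stood at 999 and 873 TPM in CD4 KO and 533 and 566 in CD8 KO without passing (adjusted p = 0.0631). Of 36 tested survival and death genes 0 passed by limma, 8 had an unadjusted p under 0.05 and the median was -0.09. Bcl2, which protects T cells from death, varied within both groups, at 41.7 and 79.1 TPM in CD4 KO and 16.7 and 61.5 in CD8 KO.

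Cell cycle genes gave 2 rises and 0 falls among 35 tested, with 25 above 0 and a median of 0.73 (0.38 without CD4 KO replicate 1, 0.46 with a pseudocount of 5). In WT cells the median of this list was 0.12. Ccne1, the cyclin that starts DNA replication, stood at 58.7 and 56.6 TPM in CD8 KO against 6.88 and 8.89 in CD4 KO (2.73 ± 0.31, adjusted p = 0.00513), and at 55.2 in CD8 WT replicate 1 against 18.3 and 19.4 in CD4 WT. Mcm6, a helicase subunit of replication, stood at 240 and 257 TPM in CD8 KO against 110 and 136 in CD4 KO (1.01 ± 0.20, adjusted p = 0.0498). Its WT difference was 0.31. Mki67, which marks dividing cells, stood at 7.70 and 10 TPM against 2.15 and 2.30 and did not pass (adjusted p = 0.187). Of 45 ribosomal protein genes 1 was lower, Rps2, from 1233 and 947 TPM to 189 and 291, a gene with processed copies in the genome that makes its count uncertain. The WT difference of Rps2 had the other sign (1.06), with 593 and 845 TPM in CD4 WT and 1478 in CD8 WT replicate 1. The excluded CD8 WT replicate 2 stood at 933 TPM. Of 43 tested oxidative phosphorylation genes and 24 tested cytokine receptor genes 0 passed by limma in either direction, with 6 and 7 at an unadjusted p under 0.05 and medians of 0.26 and 0.15. Il7r, the survival receptor of naive cells, stood at 1551 and 1270.2 TPM in CD8 KO and 1000.1 and 1173 in CD4 KO.

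Transcripts of naive T cells were abundant in both groups. Ccr7, a chemokine receptor for entry into lymph nodes, stood at 3215 and 3288 TPM in CD4 KO and 2294 and 2253 in CD8 KO, and Cd44, low in the gate, at 6.97 to 10.8 TPM over the 4 KO libraries. The genes of this list that passed were Tob1 and Dapl1, a gene of naive CD8 cells, which stood at 87.7 and 64.6 TPM in CD8 KO against 21.8 and 8.70 in CD4 KO (2.36 ± 0.41, adjusted p = 0.0314). Markers of innate-like T cells were mostly low, except 5830411N06Rik, a scavenger receptor family gene of gamma-delta T cells. It stood at 54.8 and 25.7 TPM in CD8 KO and at 1.89 and 2.91 in CD4 KO (3.52 ± 0.64, adjusted p = 0.0351). In WT cells 5830411N06Rik did not differ that way, at 2.16 and 0.434 TPM in CD4 and 0.264 and 0 in CD8 replicates 1 and 2. Its relative Cd163l1 stood at 48.7 and 35.4 TPM against 1.76 and 6.17 without passing, and reads may be shared between the pair. Of the 13 tested gamma-delta T, NK and NKT markers this was the 1 called.

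B cell transcripts moved with the lineage in both genotypes. All 20 tested B cell markers lay below 0 in the KO comparison, 11 were called lower and 0 higher, and the median was -1.64, with -2.72 in WT cells. Ms4a1, which encodes CD20, stood at 255 and 264 TPM in CD4 KO and 46.8 and 34.9 in CD8 KO (-2.65 ± 0.22, adjusted p = 0.00139). Cd74, the chaperone of MHC class II, stood at 3265 and 2719 TPM against 868 and 1287 (-1.49 ± 0.26, adjusted p = 0.0295). Summed over the 20 B cell markers, the CD4 KO libraries came to 3786 and 3813 TPM and the CD8 KO libraries to 1346 and 1383, so that the groups do not overlap. None of the 20 is at 0 in 3 of the 4 KO libraries, and 2 are at 0 in CD8 KO replicate 2. The MHC class II and dendritic cell list came to 6075 and 5709 TPM against 2202 and 2728, with 4 of 17 tested genes called lower. Myeloid markers came to 1784 and 2686 TPM against 1478 and 1950, with 1 of 26 called lower, Cybb, and erythroid markers to 456 and 278 against 285 and 431, with 0 of 10 called by limma and 2 at an unadjusted p under 0.05. In all, 16 of the 109 genes called lower and 0 of the 101 called higher are on these 4 lists. In the same order, the lists hold 20, 17, 26 and 10 of the 11737 tested genes. The part of B cell transcripts in the other genes called lower was not tested.

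**Figure D4:**
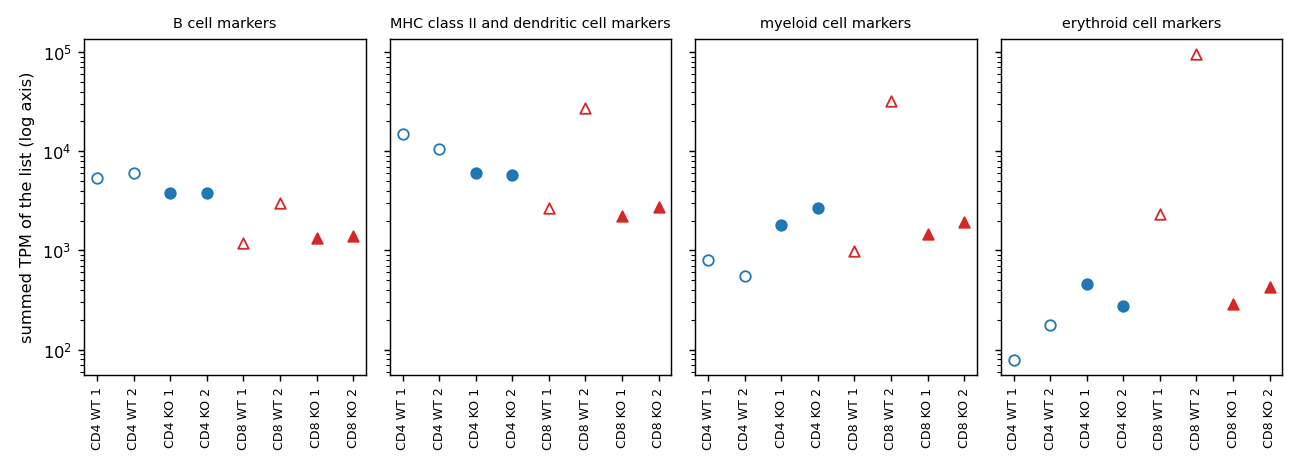
Summed TPM of marker lists of 4 other cell types in each of the 8 libraries, on a log axis, with circles for CD4, triangles for CD8, open for WT and filled for KO. CD4 KO libraries reach 3786 and 3813 TPM for B cell markers against 1346 and 1383 in CD8 KO, and CD8 WT replicate 2 stands apart for myeloid and erythroid markers.

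Genes outside these lists were among the largest differences. Amica1, a junctional adhesion molecule, stood at 52.5 and 78.3 TPM in CD8 KO against 0.0312 and 1.74 in CD4 KO (5.28 ± 0.62, adjusted p = 0.00550). Cxcr6, a chemokine receptor, stood at 90.5 and 49.2 TPM against 1.66 and 2.29 (4.52 ± 0.45, adjusted p = 0.00232). Bend4 stood at 96.3 and 81.4 TPM against 4.52 and 1.85. CD8 WT replicate 1 lay between 61.5 and 82.5 TPM for these 3 genes, near the CD8 KO level. Cxcr6 lies within Fyco1 on the other strand and counting is not stated to use strand, so reads of such pairs cannot be told apart. The same holds for Itgae with Gsg2, for Il4i1 with Tbc1d17 and for Rab6a with Mrpl48.

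The falls outside the lists held 2 kinds of pattern. Lzts2, Ccr8, Gm15708, Il4i1, Gm4956 and Ptgir had the same sign in both genotypes, with KO differences of -3.88, -3.85, -3.35, -3.23, -4.29 and -3.18 and WT differences of -2.66, -2.17, -2.44, -1.88, -4.60 and -2.68. In WT cells only Gm15708 of these 6 passed (adjusted p = 0.0498). Ccr8, a chemokine receptor, stood at 27.9 and 28.9 TPM in CD4 KO and at 3.15 and 0 in CD8 KO. Il4i1, an amino acid oxidase, stood at 21.2 and 26.9 TPM against 1.03 and 2.46. In WT cells Ccr8 stood at 17.2 and 21.1 TPM in CD4 and 3.45 in CD8 replicate 1. The excluded CD8 WT replicate 2 stood at 33.9 TPM for Ccr8, above both CD4 WT libraries. For Sp6 and Cdnf the CD4 KO libraries were the highest of all 8. Sp6, a zinc finger factor, stood at 33.3 and 36.1 TPM in CD4 KO and 0 and 0.588 in CD8 KO (KO difference -4.82 ± 0.52, adjusted p = 0.00349). In WT cells Sp6 stood at 4.85 and 9.17 TPM in CD4, 10.4 in CD8 replicate 1 and 1.91 in the excluded CD8 replicate 2. Its test between genotypes did not pass (adjusted p = 0.110). Cdnf, a neurotrophic factor, stood at 8.42 and 8.41 TPM in CD4 KO and at most 2.41 elsewhere.

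The means behind the KO and WT lineage differences come from separate libraries. Both tests use the same fit and the same pooled spread per gene, so calls in both are not independent. In WT cells 93 genes passed (0.792%), 31 higher (0.264%) and 62 lower (0.528%) in CD8, with a lone CD8 library assumed to vary like the others. Of the 101 genes higher in CD8 KO, 95 had the same sign in WT cells (94.1%, beside 45.5% of all tested genes with that sign) and 26 were called in both, which is 25.7% of the KO calls and 83.9% of the WT calls. Of the 109 lower, 82 had the same sign (75.2%, beside 54.3% of all tested genes) and 32 were called in both, which is 29.4% of the KO and 51.6% of the WT calls. Across the 210 called genes the KO and WT differences correlated with Pearson's r of 0.806 and Spearman's rho of 0.760. Over all 11737 genes, which are not independent replicates, they correlated at 0.302 and 0.213. The 210 were chosen on the KO value, which by itself can raise a correlation. The median of the genes higher in CD8 KO was 2.06 in KO and 1.16 in WT cells, and of those lower -1.87 and -0.91, where genes were chosen on the KO value.

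**Figure D5:**
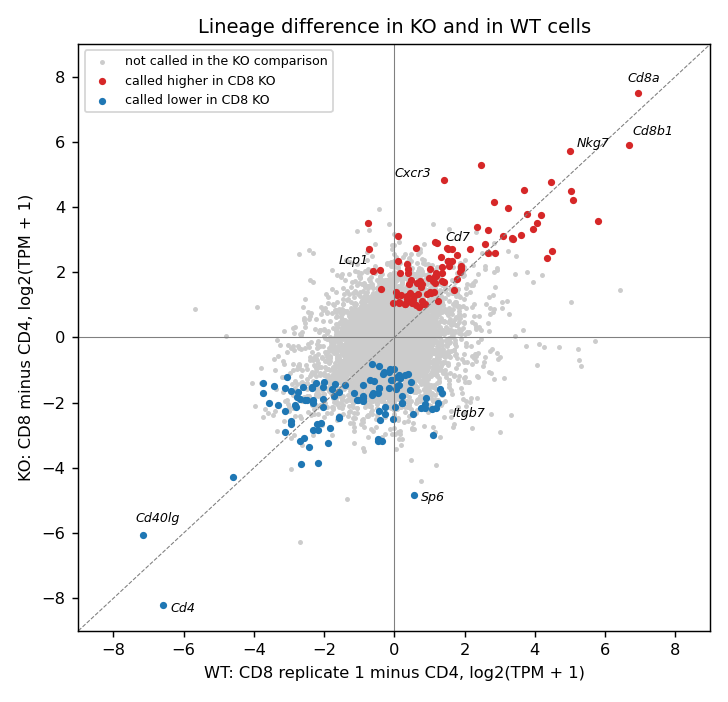
Lineage difference in KO cells (vertical axis) against that in WT cells (horizontal axis), both CD8 minus CD4 on the log2(TPM + 1) scale, 1 point per tested gene, with the 210 called genes in colour and a dashed line where both are equal. Cd8a, Cd8b1, Cd4 and Cd40lg lie far from 0 on both axes, and Itgb7, Sp6, Lcp1 and Cxcr3 lie off the line.

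A difference between the lineage differences passed for 3 of 11737 genes (0.0256%, limma), and 816 had an unadjusted p under 0.05. Just short of it was Lcp1, an actin-bundling protein of leukocytes, with 1107 and 1064 TPM in CD8 KO, 302 and 221 in CD4 KO, 684 and 678 in CD4 WT and 516 in CD8 WT replicate 1. Its KO difference was 2.06 ± 0.19 (adjusted p = 0.00166), its WT difference -0.40 ± 0.23, and the test between them gave an adjusted p of 0.0558. 9930111J21Rik2, an interferon-induced GTPase gene with a close copy beside it, gave the same adjusted p, at 121 and 138 TPM in CD8 KO, 19.4 and 18.5 in CD4 KO, 154 and 230 in CD4 WT and 114 in CD8 WT replicate 1. For both genes CD4 KO cells were the lowest of the fitted groups, though CD8 WT replicate 2, outside the fit, stood at 18.6 TPM for 9930111J21Rik2.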

How the data were processed

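Per the labels' protocols, TRIzol RNA went into a SMARTER mRNA library kit. Reads were aligned with HISAT to mm10, per the submitters' processing notes. No source used here gives the HISAT version or the program behind the tables. The deposited tables hold TPM per gene, per the file headers, scaled by the authors to a common total. They also hold FPKM and coverage, as deposited by the authors, per the file headers, and no read counts. DESeq2 is named in the labels as the authors' test and was not run here, since it needs counts.

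TPM was summed over rows of a symbol (136 to 261 symbols per library had several rows). The fit used limma 3.58.1 in R 4.3.3 on log2(TPM + 1), with an intensity trend, 4 group means, 7 libraries without CD8 WT replicate 2, 3 residual and 5.40 prior degrees of freedom, for the 11737 genes that averaged 1 TPM or more in the 4 KO libraries. Benjamini-Hochberg adjustment ran over all of them, and every p printed is from limma unless stated. Log2 differences understate changes of weak genes. TPM keeps no counts, so no counting interval is given. The steps were tested on simulated data with normal noise of the fitted spread, where weakly expressed genes were not among those changed. A simulated log2 change of 1 passed in 14 of 67 genes (20.9%). A change of 2 passed in 57 of 67 (85.1%) and of 3 in 65 of 66 (98.5%), with 7 false calls.

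Members and the 27 gene lists (670 genes, 16 matched by an older symbol, 12 not found) were chosen with earlier results of these data known. Genes were named by a rule: Cd4, Cd8a, Cd8b1, Cd7, Zbtb7b, Runx3 and Trappc1, the 10 largest rises and falls among called genes without overlap and with at least 5 TPM in the higher group, up to 3 called members per list, and the 5 lowest p-values of the difference between lineage differences. Called list members beyond these, such as Ctsw, Lck, Rasgrp1, Selplg, Cxcr5, Ccr6, Jun, Dusp1 and Tspan32, and the uncalled members printed with values, were chosen after their values were seen. Some genes that the rule names are not reported here. Promoter sequences are from RefSeq. Same-numbered libraries were not paired by the labels. The labels give no batch.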

Additional observations from a re-analysis of the deposited data

Results flagged for a closer look

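For 3 genes the KO lineage difference differed from the WT lineage difference in the test of that difference (limma, 7 libraries). Itgb7 differed by -2.91 on the log2 scale (adjusted p = 0.0383). Cdv3 differed by 6.55 (adjusted p = 0.0196): it stood at 0.161 TPM in CD8 WT replicate 1 and between 42.4 and 90.4 TPM in each of the other 7 libraries, CD8 WT replicate 2 included at 73.9. Txnl4a differed by 2.82 (adjusted p = 0.0385): it stood at 36.5 TPM in CD8 WT replicate 1, 187 in CD8 WT replicate 2 and between 214 and 273 in the other 6. For Itgb7, CD8 WT replicate 1 stood at 794 TPM and CD8 WT replicate 2 at 291, with 482 and 456 in CD4 WT, and with all 8 libraries its adjusted p was 0.686. All 3 values thus rest on CD8 WT replicate 1. Between KO cells Cdv3 and Txnl4a did not pass (adjusted p = 0.255 and 0.682). With all 8 libraries 0 genes passed this test by limma.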

How the results depend on the processing

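Genes called between CD8 KO and CD4 KO were 210, and 25 with all 8 libraries, 31 with no filter on low values, 1 without the intensity trend, and 0 to 298 when each library was left out in turn: 2 and 0 without CD4 KO replicates 1 and 2, 3 without either CD8 KO library, 287 and 298 without CD4 WT replicates 1 and 2. WT lineage calls were 93, and 21, 30 and 1 under the first 3 of these settings, 59 with a replicate block and 0 to 80 with a library left out. Calls of the difference between lineage differences were 3, and 0, 0 and 0 under the same 3 settings, 5 with a pseudocount of 5, 5 with a mean of at least 5 TPM, 1 with the replicate block and 0 to 14 with a library left out. The cause was not tested. With the replicate block 167 genes passed between KO cells. Replicate differences of CD4 KO correlated at -0.03 with those of CD8 KO and at 0.05 with those of CD4 WT. Those of CD4 WT and CD8 KO correlated at -0.04. With 2 replicates a group, these values cannot decide whether same-numbered libraries came from the same mouse. No named gene changed direction under any setting run, while the medians of 9 of the 27 lists did in at least 1. Most of these were near 0, but the gamma-delta T, NK and NKT median went from -0.54 to 0.97 with a mean of at least 5 TPM and 0.45 with FPKM, and the myeloid median from -0.48 to 0.01 without CD8 KO replicate 1. Depth per gene is unknown, since TPM keeps no counts.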
